A study of Mus musculus with 6 samples.

Results

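The genes described here are 5 keratins of simple epithelia (Krt7, Krt8, Krt18, Krt19 and Krt20) and 3 plakins (Plec, Ppl and Evpl). They were chosen by gene symbol, and all 8 were found among the 23399 genes of the count table. Their transcripts were measured by RNA sequencing in spheroids of CMT93, an established mouse line of colorectal cancer that is labelled wildtype. In the palmitate group, 3 samples received 200 µM sodium palmitate, a saturated fatty acid salt dissolved in ethanol and carried on bovine serum albumin. In the vehicle group, 3 samples received ethanol and albumin alone. Both groups were kept in their medium for 1 week as a monolayer and for 5 days as spheroids on soft agar with a little Matrigel. The labels do not say whether the samples of a group were separate cultures, so a p-value here speaks only of the spread among 6 libraries, part or all of which may be technical. The comparison asks how these transcripts differed between spheroids grown with palmitate and with vehicle.

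Keratins are the intermediate filament proteins of epithelial cells. A type I keratin and a type II keratin pair to form each filament, and the pair made by Krt18 (type I) and Krt8 (type II) is the one typical of simple epithelia such as the gut lining. Krt19 and Krt20 are further type I partners and Krt7 a further type II partner, with Krt20 known from differentiated intestinal cells and Krt7 from ducts. Plakins are large linker proteins that tie filaments to junctions and to other parts of the cytoskeleton. Plectin (Plec) links filaments to hemidesmosomes, actin and microtubules, and periplakin (Ppl) and envoplakin (Evpl) bind each other and are components of the cornified envelope of squamous epithelia.

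Library totals were 22516639 to 22852940 counts with palmitate and 18898896 to 21851987 with vehicle, so each palmitate library was the deeper. The calls for the 7 tested members given below were the same after all libraries were thinned to one depth. Of the 8 colon epithelium markers, 2 were higher, 3 lower and 3 not called, against 27.4% of all tested genes higher and 25.4% lower. The levels of these markers were uneven. Cdh1 (E-cadherin) was at 2091 CPM with palmitate and 2158 CPM with vehicle, and Epcam at 657 CPM with palmitate and 673 CPM with vehicle, where CPM is counts scaled to a common library size after TMM normalisation. Some intestinal markers were low. The regulator Cdx2 was at 2.46 CPM with palmitate and 1.72 CPM with vehicle, Vil1 (villin) at 14.4 CPM with palmitate and 15.7 CPM with vehicle, and the cadherin Cdh17 at 16.1 CPM with palmitate and 19.4 CPM with vehicle. Fibroblast markers summed to 0.843 to 0.969 CPM with palmitate and 1.29 to 1.68 CPM with vehicle, endothelial markers to 2.00 to 2.55 and 3.23 to 3.55 CPM in the same order, and immune markers to 0.264 to 0.311 and 0.682 to 1.00 CPM. Of these 9 measured markers none was at 0 in all libraries, while Pdgfra and Dcn were at 0 in every vehicle library. Squamous epithelium markers summed to 27.6 to 30.4 CPM with palmitate and 17.8 to 18.3 CPM with vehicle. Whether cells of these types were present at all in these samples of the CMT93 line was not tested. For any cell type, fewer cells cannot be told apart from less RNA per cell in bulk samples.

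The simple keratins did not change in one direction with palmitate. Krt18 fell by 25.3%, Krt8 fell by 15.5% and Krt7 fell by 8.25%, while Krt19, the other abundant type I keratin, rose by 9.22%. Among the plakins, Evpl rose by 22.0% and Plec by 10.4%, and Ppl fell by 10.9%. All 7 members that passed the filter on low counts passed the threshold of 0.05 on the adjusted p of edgeR's quasi-likelihood test, with 3 higher and 4 lower. The background was high: 52.8% of the 14987 tested genes were called, 27.4% higher and 25.4% lower, and 65.0% of those averaging at least 50 CPM. The 3 libraries of one group did not overlap those of the other for each of the 7, against 57.8% of tested genes. The absolute log2 fold changes ranged from 0.12 to 0.42, against a median of 0.15 over tested genes. Of the members, only Krt18 passed the test against a minimum change of 1.2-fold (adjusted p = 7.25e-17, glmTreat of edgeR), which 15.2% of tested genes passed. For Evpl that adjusted p was 0.388 (glmTreat).

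**Figure D1:**
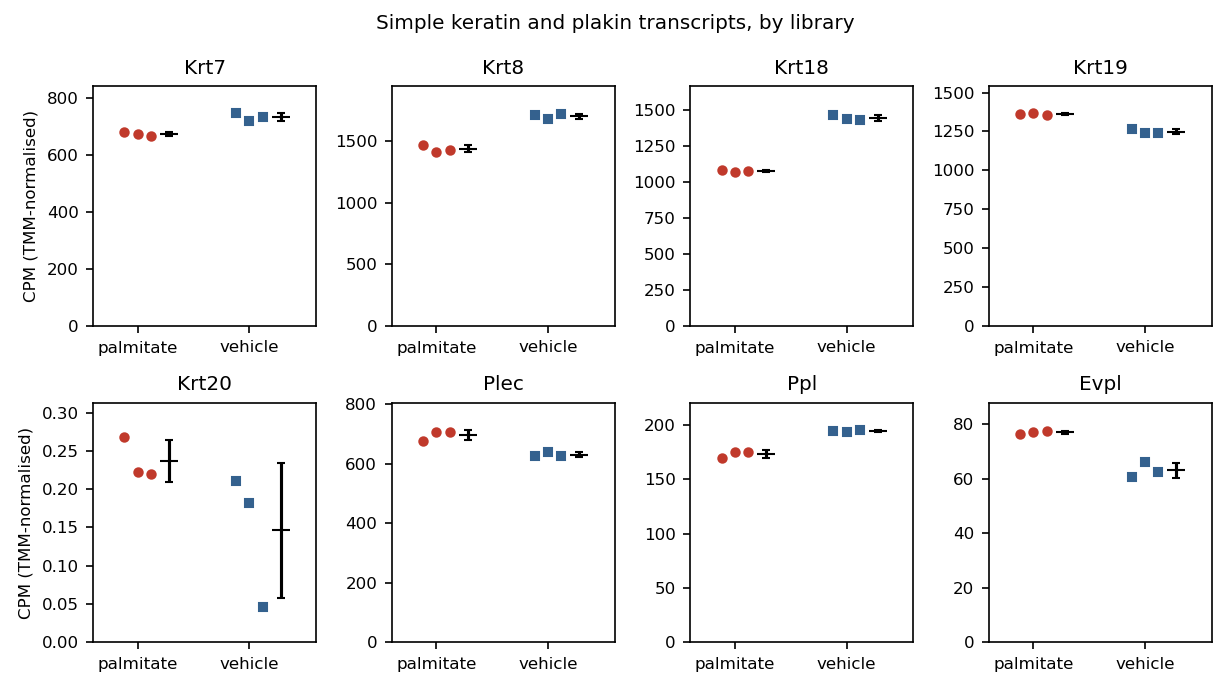
CPM of each of the 8 genes in the 6 libraries, with palmitate (red circles) left of vehicle (blue squares); the bar beside each group is the mean ± SD (n = 3) and each vertical axis starts at 0. Krt18, Krt8, Krt7 and Ppl were lower with palmitate, Krt19, Plec and Evpl were higher, and Krt20 had at most 0.268 CPM in any library.

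Krt18 (ENSMUSG00000023043.8) was the member that changed the most. It had 1087, 1071 and 1079 CPM in the palmitate libraries, against 1469.5, 1437 and 1429 CPM in the vehicle libraries. The lowest vehicle library thus lay well above the highest palmitate library. The means were 1079 ± 7.71 CPM with palmitate and 1445 ± 21.4 CPM with vehicle (SD, n = 3 each). The log2 fold change was -0.42 with an SE of 0.0148 (edgeR, adjusted p = 4.22e-42). Of tested genes, 80.2% had a smaller absolute log2 fold change.

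Its type II partner Krt8 (ENSMUSG00000049382.11) fell less. It had 1469.5, 1414 and 1432 CPM with palmitate, against 1712, 1677 and 1718 CPM with vehicle. Every palmitate library was lower than every vehicle library (edgeR log2 fold change -0.24 with an SE of 0.0148, adjusted p = 6.87e-26). A processed pseudogene listed as Krt8-ps can share reads with it. The pseudogene's own counts came to 0.300 ± 0.0402% of those of Krt8 with palmitate and 0.358 ± 0.0340% with vehicle (SD, n = 3 each). These counts do not show how many reads match both.

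Krt7 (ENSMUSG00000023039.18), the second type II keratin, had 679, 673 and 665 CPM with palmitate, against 747, 718 and 735 CPM with vehicle. The groups did not overlap, and the difference was the smallest of the keratins that fell (edgeR log2 fold change -0.12 with an SE of 0.0162, adjusted p = 2.30e-10). It is not stated whether reads were counted by strand, and both Krt7 and Krt8 have an antisense noncoding gene over an exon in the earlier annotation (Gm671 and Gm36026). These averaged 1.73 and 2.41 CPM with palmitate and 2.04 and 3.77 CPM with vehicle.

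Krt19 (ENSMUSG00000020911.15), the smallest type I keratin and one that lacks most of the usual tail domain, went the other way. It had 1365, 1369.7 and 1357 CPM with palmitate, against 1267, 1241 and 1238 CPM with vehicle. All palmitate libraries exceeded all vehicle libraries (log2 fold change 0.13, SE 0.0147, adjusted p = 3.08e-12, edgeR).

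Krt20 (ENSMUSG00000035775.3) was barely detected and did not pass the filter on low counts. It had 6, 5 and 5 counts in the palmitate libraries, against 4, 4 and 1 counts in the vehicle libraries. Without the filter its adjusted p was 0.411 (edgeR), so no difference was detectable at this depth.

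Krt8 and Krt18 are neighbouring protein-coding genes on chromosome 15 in RefSeq's GRCm38.p6 annotation, and Krt7 lies on the same chromosome between Krt80 and Krt87, whereas Krt19 and Krt20 lie on chromosome 11. RefSeq promoter windows, from 250 bases before to 50 bases after the annotated start on GRCm38.p6, were matched by symbol for 4 of the 8 members. The windows of the 3 keratins that fell are shown because these genes moved in one direction and include the partner pair. Capitals mark matches on either strand to one of 4 motifs. The TATA box was searched as TATAAA. The GC box was searched as GGGCGG and the AP-1 site as TGANTCA. The E-box was searched as CACCTG. The windows are chr15:102027966-102028265 on the plus strand for Krt18, chr15:102004293-102004592 on the minus strand for Krt8 and chr15:101412153-101412452 on the plus strand for Krt7.
Krt18: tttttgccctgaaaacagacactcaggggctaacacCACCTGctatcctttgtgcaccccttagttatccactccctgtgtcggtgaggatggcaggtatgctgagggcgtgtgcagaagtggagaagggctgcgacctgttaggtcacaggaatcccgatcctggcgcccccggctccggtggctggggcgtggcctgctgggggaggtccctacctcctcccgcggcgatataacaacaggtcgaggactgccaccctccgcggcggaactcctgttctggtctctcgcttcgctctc
Krt8: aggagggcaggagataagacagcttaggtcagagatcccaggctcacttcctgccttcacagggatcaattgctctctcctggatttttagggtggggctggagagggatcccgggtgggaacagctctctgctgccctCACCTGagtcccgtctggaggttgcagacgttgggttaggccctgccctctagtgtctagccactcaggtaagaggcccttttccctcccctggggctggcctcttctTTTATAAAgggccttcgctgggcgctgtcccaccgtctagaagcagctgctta
Krt7: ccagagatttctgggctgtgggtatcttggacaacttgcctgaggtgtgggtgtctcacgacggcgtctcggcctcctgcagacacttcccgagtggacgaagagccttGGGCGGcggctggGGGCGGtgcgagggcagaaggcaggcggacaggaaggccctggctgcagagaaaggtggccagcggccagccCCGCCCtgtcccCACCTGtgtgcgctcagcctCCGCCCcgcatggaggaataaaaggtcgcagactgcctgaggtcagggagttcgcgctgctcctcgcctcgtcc
The letters CACCTG were found in all 3 windows, and in 20.2% of the 32851 promoter windows in the table. GGGCGG was found 4 times in the Krt7 window and in neither of the others, and 35.7% of all windows hold it. TATAAA was found in the Krt8 window, as a pair of overlapping matches on opposite strands across the annotated start, and 13.6% of all windows hold it. TGANTCA was in none of the 3, and in 7.8% of all windows. The window of Krt20, the fourth one matched, held TATAAA at positions -29 to -24 from the start and none of the other motifs, CACCTG included. The motifs were picked with these sequences in view, and a match of letters is a description, not a binding site.

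The pool of simple keratin transcripts was smaller with palmitate and differed in its make-up. The 5 keratins together took 0.457, 0.450 and 0.450% of all counts with palmitate, against 0.522, 0.510 and 0.514% with vehicle. Summed, they averaged 4554 ± 40.5 CPM with palmitate and 5129.7 ± 61.5 CPM with vehicle (SD, n = 3 each). The type I keratins summed to 2443 ± 8.19 CPM with palmitate and 2694 ± 37.3 CPM with vehicle. The type II keratins summed to 2111 ± 33.1 CPM with palmitate and 2436 ± 35.2 CPM with vehicle, and these sums were not tested. The type I share of these counts was 53.3, 53.9 and 53.7% with palmitate, against 52.7, 52.8 and 52.1% with vehicle. The groups did not overlap, and the difference was 1.13 percentage points (two-sided exact permutation test, p = 0.10, the smallest p that 3 against 3 libraries allow).

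Levels of different keratins were compared per kilobase of the longest principal transcript in the Gencode vM21 annotation. With palmitate Krt19 was first, at 865 ± 4.17 CPM per kb, followed by Krt18 at 751 ± 5.37, Krt8 at 735 ± 14.4, Krt7 at 164 ± 1.70 and Krt20 at 0.123 ± 0.0142 CPM per kb (SD, n = 3). Krt18 and Krt8 were close there, with Krt18 the higher in each palmitate library (756 against 751, 746 against 722 and 751 against 731 CPM per kb). With vehicle the order was Krt18 at 1006 ± 14.9, Krt8 at 869.5 ± 11.2, Krt19 at 792 ± 10.1, Krt7 at 179 ± 3.56 and Krt20 at 0.0759 ± 0.0456 CPM per kb. Krt19 thus stood first with palmitate and below Krt18 and Krt8 with vehicle. Per kilobase of coding sequence Krt19 again came first with palmitate (1128 ± 5.44 CPM per kb) and below both with vehicle (1033 ± 13.1). On that scale Krt8 and Krt18 came to 979 ± 19.2 and 850.2 ± 6.08 CPM per kb with palmitate, and to 1158 ± 14.9 and 1139 ± 16.9 with vehicle. They were close with vehicle, with Krt8 the higher in each library (1165 against 1158, 1141 against 1132 and 1169 against 1126 CPM per kb). The annotated Krt7 transcript is 4.09 kb long for 1.37 kb of coding sequence, so its level per kilobase depends strongly on which length is used, at 490.5 ± 5.07 CPM per kb of coding sequence with palmitate and 535 ± 10.6 with vehicle.

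**Figure D2:**
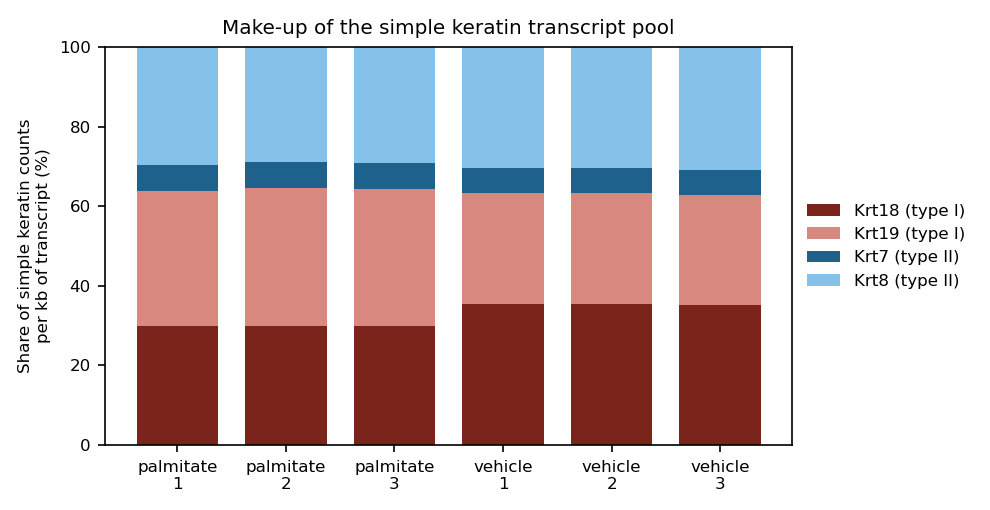
Share of each keratin in the simple keratin counts per kb of transcript (vertical axis, percent) in each library, with the 3 palmitate libraries left of the 3 vehicle libraries; Krt20 is too low to be seen. Krt18 made up 29.9 ± 0.0956% with palmitate and 35.3 ± 0.236% with vehicle, and Krt19 34.4 ± 0.321% with palmitate and 27.8 ± 0.130% with vehicle (SD, n = 3 each).

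Ratios of counts between members within a library do not depend on how libraries are scaled. The ratio Krt18/Krt8 was -0.44, -0.40 and -0.41 on the log2 scale with palmitate, against -0.22, -0.22 and -0.27 with vehicle, a difference of -0.18. The 2 partners thus changed unequally, with Krt18 falling more than Krt8. The ratio Krt19/Krt18 was 0.33, 0.35 and 0.33 with palmitate against -0.21, -0.21 and -0.21 with vehicle. This ratio of the 2 abundant type I keratins differed by 0.55 and was 1.46-fold higher with palmitate, and every palmitate library had more Krt19 than Krt18 counts while every vehicle library had fewer. Krt7/Krt8 was higher by 0.12 on the log2 scale. Krt20/Krt18 differed by 1.38, which rests on 6 or fewer Krt20 counts per library. Without vehicle replicate 3, which had 1 Krt20 count, it differed by 0.70, so 1 library decides its size. Of the 8 within-library measures compared (7 ratios and the type I share), each had groups that did not overlap and a two-sided exact permutation p of 0.10, which is also the adjusted value and the smallest possible. These measures reuse the same members, whose groups were already apart singly, as were those of 57.8% of tested genes. No such share was computed over other pairs of genes.

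Plec (ENSMUSG00000022565.16), the most abundant of the 3 plakins, had 675, 707 and 706 CPM in the palmitate libraries, against 627, 641 and 624 CPM in the vehicle libraries. Each palmitate library was the higher (log2 fold change 0.14, SE 0.0167, adjusted p = 8.33e-12, edgeR). An exon of Plec overlaps the span of Parp10 on the same strand in the earlier annotation, so reads there may not be assigned to one gene with certainty. Whether exons of Parp10 lie in that stretch was not checked. Parp10 itself averaged 38.4 CPM with palmitate and 37.2 CPM with vehicle.

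Evpl and Ppl, whose proteins bind each other, changed in opposite directions. Evpl (ENSMUSG00000034282.4) had 76.4, 77.1 and 77.7 CPM with palmitate, against 60.7, 66.1 and 62.4 CPM with vehicle. It rose in all palmitate libraries relative to all vehicle libraries (log2 fold change 0.29, SE 0.0332, adjusted p = 3.66e-12, edgeR). Ppl (ENSMUSG00000039457.5) had 169, 175 and 176 CPM with palmitate, against 195, 193 and 196 CPM with vehicle. Its groups were also apart (log2 fold change -0.17, SE 0.0217; edgeR adjusted p = 2.03e-10). The lowest Evpl count was 1153, for which counting error alone is 2.95%.

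Within libraries, the ratio Evpl/Ppl was -1.15, -1.18 and -1.18 on the log2 scale with palmitate, against -1.68, -1.55 and -1.65 with vehicle. It was 1.37-fold higher with palmitate, and the groups did not overlap. Ppl/Plec differed by -0.31 and Evpl/Plec by 0.15 on the log2 scale, palmitate minus vehicle. Per kilobase of transcript the plakins kept one order in both groups. Plec came to 45.1 ± 1.18 CPM per kb with palmitate and 40.9 ± 0.573 with vehicle, Ppl to 27.9 ± 0.565 and 31.3 ± 0.175, and Evpl to 12.1 ± 0.102 and 9.88 ± 0.435 in the same order (SD, n = 3 each).

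**Figure D3:**
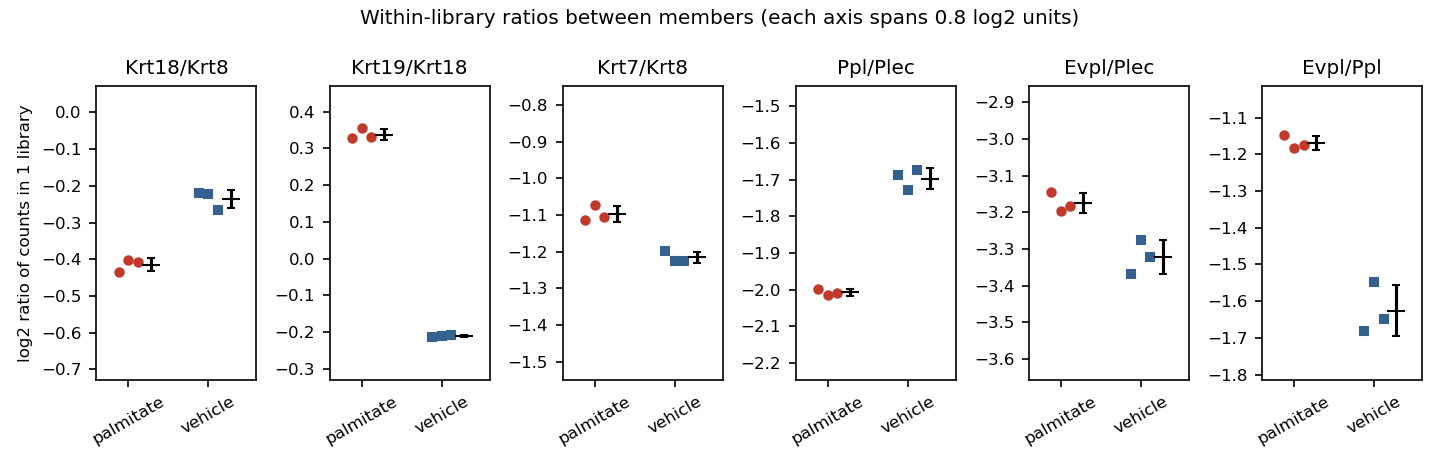
Log2 ratio of the counts of 2 members within each library (vertical axes, each spanning 0.8 log2 units), with palmitate (red circles) left of vehicle (blue squares) and the mean ± SD (n = 3) beside each group. Krt19/Krt18 and Evpl/Ppl were higher with palmitate by 0.55 and 0.46, and Ppl/Plec and Krt18/Krt8 were lower, with no overlap between groups.

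Of the 4 other plakins, desmoplakin and dystonin rose slightly, Macf1 fell slightly and Eppk1 was not called. Dsp, which anchors keratins to desmosomes, averaged 664 ± 6.45 CPM with palmitate and 612 ± 2.82 CPM with vehicle (SD, n = 3 each; log2 fold change 0.12, adjusted p = 8.54e-10, edgeR). Dst, which anchors them to hemidesmosomes in basal cells, had a log2 fold change of 0.07 and Macf1, a linker of actin and microtubules, of -0.05, and both were called. Eppk1 (epiplakin), a keratin-binding plakin, had 22.4 ± 0.652 CPM with palmitate and 23.6 ± 0.310 CPM with vehicle (adjusted p = 0.245, edgeR).

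Listed keratins other than the members mostly rose, from levels much lower than those of the abundant member keratins. Of 28 listed genes, 18 had a row and 11 were tested. Of these 11, 8 were higher, 1 lower and 2 not called, against 27.4% of all tested genes higher and 25.4% lower. Their median log2 fold change was 0.55, against 0.00068 over all tested genes. Krt4, a type II keratin of mucosal squamous epithelium, had 9.40, 8.30 and 8.85 CPM with palmitate, against 2.05, 2.05 and 2.12 CPM with vehicle, and was 4.25-fold higher (adjusted p = 8.68e-27, edgeR). Krt79 was 2.77-fold higher, at 2.84 ± 0.277 CPM with palmitate and 1.03 ± 0.255 CPM with vehicle (SD, n = 3 each). The type I keratin Krt23 averaged 43.9 ± 1.52 CPM with palmitate and 32.4 ± 1.69 CPM with vehicle (log2 fold change 0.44), and the stress-responsive Krt6a averaged 105 ± 4.09 CPM with palmitate and 86.5 ± 2.84 CPM with vehicle (log2 fold change 0.27). Krt6a has a close copy, Krt6b, that can share reads. Krt4 also stands in the list of squamous markers, of which Krt13 (log2 fold change 0.60) and Krt14 (0.55) were called and Krt10 (0.01) and Trp63 (0.10) were not. Krt5 and Ivl had at most 0.132 CPM in any library and were not tested.

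**Figure D4:**
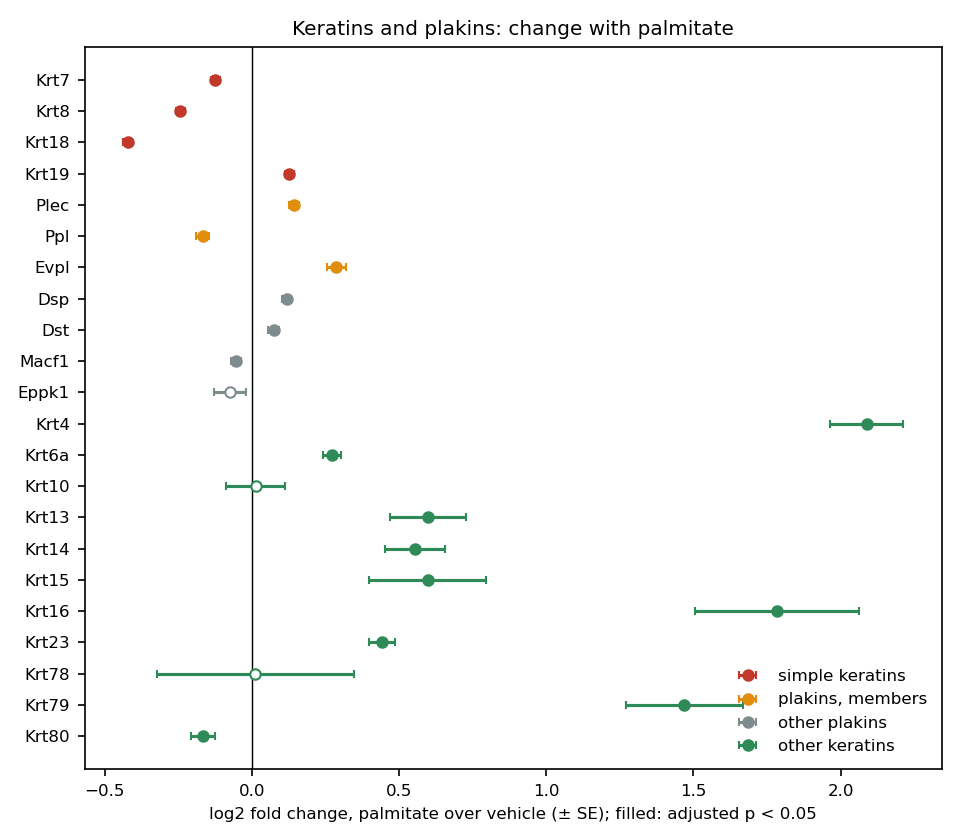
Log2 fold change of each tested keratin and plakin, palmitate over vehicle (horizontal axis, bars ± SE; filled points have an adjusted p under 0.05). The tested member keratins lie between -0.42 and 0.13, whereas Krt4 reaches 2.09.

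Other intermediate filament genes were mixed: of 8 tested, 1 was higher, 3 lower and 4 not called, with a median log2 fold change of 0.01. Among all tested genes, 27.4% were higher and 25.4% lower. Vim, the mesenchymal filament vimentin that is also common in cell lines, fell to 783 ± 14.3 CPM with palmitate, against 920.3 ± 9.45 CPM with vehicle (SD, n = 3 each; log2 fold change -0.23, adjusted p = 1.57e-23, edgeR). Nes (nestin) rose to 128 ± 1.11 CPM with palmitate, against 111 ± 1.74 CPM with vehicle (log2 fold change 0.21). The muscle filament Des and the lamin Lmnb1 fell, with log2 fold changes of -0.93 and -0.09. Des was low, at 1.49 ± 0.128 CPM with palmitate and 2.87 ± 0.526 CPM with vehicle.

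The junctions to which keratins attach did not move as a block. Of 9 tested desmosome genes, 4 were higher, 3 lower and 2 not called, with a median log2 fold change of -0.00045. Beside these counts and the hemidesmosome counts below stand 27.4% of all tested genes higher and 25.4% lower. Jup (plakoglobin) rose to 305 ± 1.72 CPM with palmitate, against 256 ± 4.55 CPM with vehicle (SD, n = 3 each; log2 fold change 0.25, adjusted p = 1.44e-20, edgeR), while Pkp4 (-0.29) and the desmosomal cadherin Dsg2 (-0.13) fell on the log2 scale. Of 9 tested hemidesmosome genes, the structures that plectin joins to keratins, 2 were higher, 4 lower and 3 not called, with a median of -0.06. The integrin subunit Itga6 fell to 89.0 ± 1.43 CPM with palmitate, against 124 ± 4.08 CPM with vehicle (SD, n = 3 each; log2 fold change -0.48, adjusted p = 1.96e-27, edgeR). The laminin subunit Lamb3 (-0.31) and the tetraspanin Cd151 (-0.18) fell, and Lad1 (ladinin) rose (0.15), in log2 fold changes.

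Of 19 listed genes of the cornified envelope, 8 were tested. Among these 8, 3 were higher, 2 lower and 3 not called, with a median log2 fold change of -0.07. The shares over all tested genes were 27.4% higher and 25.4% lower. Kazn (kazrin), which binds periplakin, averaged 5.38 ± 0.402 CPM with palmitate and 2.40 ± 0.672 CPM with vehicle (SD, n = 3 each; log2 fold change 1.19, adjusted p = 1.64e-11, edgeR). The transglutaminase gene Tgm5 rose by 0.69 and S100a10 by 0.08 on the log2 scale. Anxa1 (annexin A1) fell to 686 ± 5.40 CPM with palmitate, against 923 ± 10.7 CPM with vehicle (log2 fold change -0.43).

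Of 24 tested genes whose products bind or modify keratins or plakins, 9 were higher, 5 lower and 10 not called, with a median log2 fold change of 0.03. The kinase genes Akt1 (0.21) and Csnk1a1 (0.20) rose, and Sun1 (-0.22), a protein of the inner nuclear membrane, fell, in log2 fold changes. Of 25 tested epithelial transcription factors, 13 were higher, 5 lower and 7 not called, with a median of 0.10. For both lists, the shares over all tested genes were 27.4% higher and 25.4% lower. Grhl3, a regulator of surface epithelium, fell to 4.54 ± 0.327 CPM with palmitate, against 16.9 ± 2.19 CPM with vehicle (SD, n = 3 each; log2 fold change -1.89, adjusted p = 3.85e-30, edgeR). Elf3 fell (-0.38) and Notch1 (0.57) and Ehf (0.20) rose, in log2 fold changes. No direct test of these genes against the keratins was made.

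**Figure D5:**
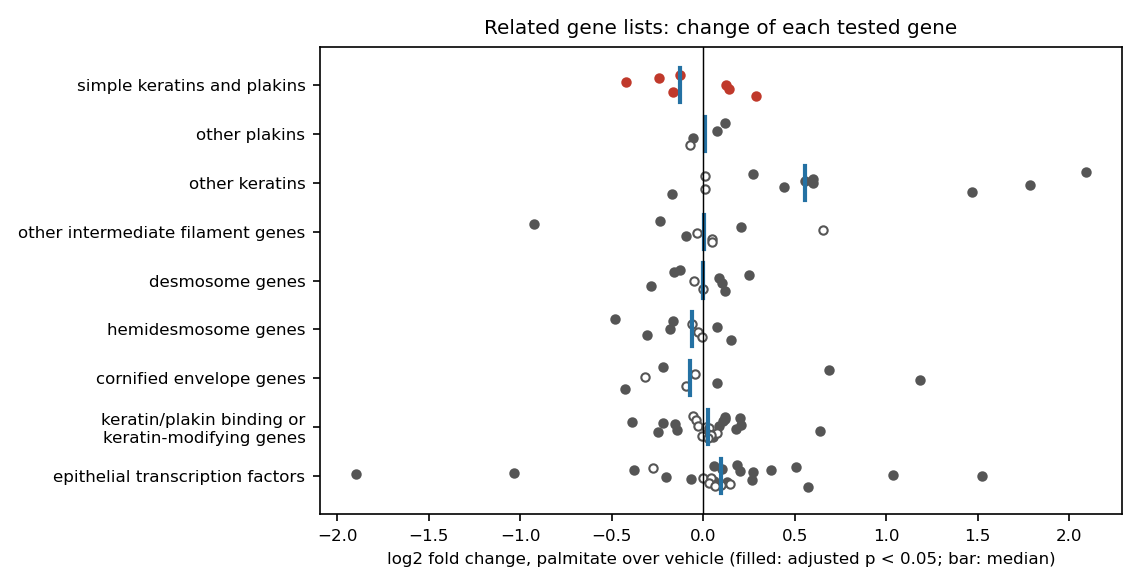
Log2 fold change, palmitate over vehicle, of every tested gene of the members and of 8 related lists, cell type markers not included (horizontal axis; filled points have an adjusted p under 0.05, the blue bar is the list's median). The median of the other keratins was 0.55, and those of the other lists plotted lay between -0.12 and 0.10.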

How the data were processed

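Counts per gene from 6 libraries of polyadenylated RNA, prepared with a stranded mRNA kit, were deposited by the authors as raw counts. FastQC 0.11.8, STAR 2.6.1, HTSeq and the build mm39 stand in the submitters' processing notes. The authors' deposited gene table holds log2 fold changes, p-values, q-values and a score (signed −log10 of the p-value) made with DESeq2 1.34.0, per the deposited column descriptions and these notes; none of its values is printed. Gene lengths and overlaps came from Gencode vM21, on the preceding build, and only the RefSeq promoter windows are given positions.

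The whole table was tested with edgeR 4.0.16 in R 4.3.3 (TMM, filterByExpr with a minimum count of 10, glmQLFit with robust estimation, glmQLFTest, two-sided, Benjamini-Hochberg). The fit was also run on simulated counts. Far fewer genes were changed there than were called here, so that run says little about these data. SE is the log2 fold change over the root of F. Ratios were tested with SciPy 1.17.1. The members and lists were chosen with earlier results of these data known. Named were all members and other plakins, and of each further list up to 4 called genes by smallest p of at least 1 CPM; other marker genes come from the marker lists. One gene that this rule names is not reported here. Listed genes without a row were not analysed here. Between libraries of a group, chi-square over degrees of freedom was 1.20 to 1.38, above sampling noise. Same-numbered libraries did not deviate together. Alternatives were other scalings (median-of-ratios, total counts), no filter, DESeq2 1.42.0, limma-voom 3.58.1, glmTreat, a replicate block, thinning and leaving out each library. Counting error bounds the precision of low genes.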

Additional observations from a re-analysis of the deposited data

How the results depend on the processing

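The 7 tested members were called, in the same direction, under median-of-ratios or total count scaling, no count filter, DESeq2, limma-voom, thinning to the shallowest library, the replicate block and each of the 6 fits that left out a library. The number of all genes called in these fits was 7883, 7849, 8023 (of 23399), 5663 (of 17501), 7847, 7473 and 7933, and 7260 to 7406 without a library. Over these alternatives the log2 fold change lay between -0.44 and -0.41 for Krt18, -0.26 and -0.23 for Krt8, -0.14 and -0.11 for Krt7, 0.11 and 0.14 for Krt19, 0.13 and 0.17 for Plec, -0.18 and -0.15 for Ppl, and 0.26 and 0.32 for Evpl. Against a minimum change of 1.2-fold, 1 member and 2275 of all tested genes were called, which follows from the stricter null. With the replicate block, 7 members and 7933 genes were called, against 7915 without it. Same-numbered libraries had correlations of -0.02 between their deviations from the group means (9677 genes). These deviations hold much sampling noise, so they cannot show whether same-numbered samples shared a culture or a day. Within-library ratios kept their sign without any one library (Krt20/Krt18 ranged between 0.70 and 1.77), where the smallest p that 2 against 3 libraries allow is 0.20. The type I share also rose per kilobase, by 1.10 points, an alternative added after the data were seen. Of the other named genes, 22 lost their call against the minimum change. Under the remaining alternatives Cdx2, Cldn7, Cdh1 and Cdh5 lost theirs in at least 1, and Epcam gained one in 6. Depth leaves Krt20 undetermined.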

Other observations

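The genes whose log2 CPM over the 6 libraries followed those of Krt8 and Plec, the member keratin and plakin of highest mean CPM, most closely were listed among 9670 other genes of at least 10 CPM. For Krt8 these were Asph, Appl2 and Tprn, with Pearson correlations of 0.9995, 0.9991 and 0.9991, and 160 genes had one of at least 0.99. For Plec they were Yif1a, Zfp408 and Rpa2, with correlations of 0.996, 0.995 and 0.993, and 18 genes had one of at least 0.99. The 6 libraries fall into 2 groups, so genes that differ between the groups with little spread reach high values, and these are given as a description. Asph, Appl2 and Tprn had log2 fold changes of -0.49, -0.72 and -0.43, and Yif1a, Zfp408 and Rpa2 of 0.16, 0.27 and 0.18, palmitate over vehicle.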
